A study of Mus musculus with 2 samples.

Results

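The genes of the mouse mitochondrial genome were taken by their GENCODE symbols, all of which begin with mt-, and make up 37 of the 43346 mouse genes in the tables. They comprise 13 protein-coding genes, 2 ribosomal RNA genes and 22 transfer RNA genes, and no other annotated gene lies on that chromosome. The choice used no measured value. Total RNA was sequenced from embryonic day 11.5 liver of the B6NCrl strain, in 2 libraries, called biological replicates by the labels, that form 1 healthy and untreated group. The spread between libraries is one between pools and preparations. Replicate 1 came from a pool of 109 embryos and replicate 2 from a pool whose size the labels do not give, and both pools mixed the sexes. Each library was made from 10 ng of RNA of a size range above 200, with spike-in control RNAs added. The group has no control, so the comparisons are those between genes within the tissue and that of replicate 1 with replicate 2. Of markers of the tissue, 5 of 5 hepatoblast genes and 6 of 6 red cell genes reached 1 TPM (a level per gene length, scaled so that all features of a library sum to the same total) in each library. So did 31.1% of all mouse genes, 3 of 3 macrophage, 5 of 6 heart muscle and 2 of 3 neural markers. Reaching 1 TPM thus does not single out the named cell types. Values are the mean ± SD over both libraries (n = 2) unless a library is named.

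Mitochondrial DNA is a small circle present in many copies per cell, and each strand is read as a long transcript. Its messenger RNAs encode core subunits of complexes I, III, IV and V of the respiratory chain, which all other subunits join from the nucleus. The transfer RNAs lie between the longer genes, and their removal releases most of the messenger and ribosomal RNAs. The fetal liver is a site where red cell precursors, which need mitochondria for haem and iron-sulphur synthesis and lose them on maturation, grow beside hepatoblasts. On the mouse chromosome 28 of the 37 genes are read in the direction of the heavy-strand transcript and 9 in that of the light-strand transcript, among them mt-Nd6 and 8 of the transfer RNAs.

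The mitochondrial genes held 445248 estimated counts, or 1.40% of those on mouse genes (95% Wilson interval 1.3995 to 1.4077%), in replicate 1 and 352441, or 1.18% (1.1808 to 1.1886%), in replicate 2. Messenger RNAs made up most of this, with 1.15% and 0.981% of gene counts in replicates 1 and 2, and ribosomal RNAs held 0.253% and 0.203%. The Wilson intervals treat counts as independent draws and describe counting error alone. Between the libraries the SD of the mitochondrial share was 0.155 percentage points. On TPM, which corrects for length, the 13 messenger RNAs held 2.28% ± 0.162 of the level of all mouse genes. In bulk tissue, fewer cells of a type and less RNA per cell cannot be told apart.

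Of the 37 genes, 15 reached 1 TPM in each library, against 31.1% of all mouse genes. The other 22 were the transfer RNA genes, which carry amino acids to the mitochondrial ribosome, and all had 0 counts and an effective length of 0. Effective length is the number of positions at which a read can start within a transcript, and for each of the 15 longer genes it equalled the length less 99 bases, so that reads of 100 bases are implied. The transfer RNA genes are 59 to 75 bases long. No read of that length lies within them, and their level was not measurable here. The longest and the shortest are shown, as GENCODE M21 transcripts on GRCm38.
mt-Tl1 (leucine; chrM:2676-2750, plus strand): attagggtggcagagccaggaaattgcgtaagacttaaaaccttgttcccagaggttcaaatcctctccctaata
mt-Ts2 (serine; chrM:11613-11671, plus strand): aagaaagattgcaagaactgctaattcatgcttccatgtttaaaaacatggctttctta

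The ribosomal RNAs, which form the core of the mitochondrial ribosome, stood below the leading messenger RNAs. The small subunit RNA mt-Rnr1 (chrM:70-1024) was at 573 TPM in replicate 1 and 446 in replicate 2. The large subunit RNA mt-Rnr2 (chrM:1094-2675) was at 1765 TPM in replicate 1 and 1554 in replicate 2. mt-Rnr1 was thus at 0.306 ± 0.0267 of mt-Rnr2; both are read from the same strand side by side. The 2 genes together reached 0.109 ± 0.00737 of the summed TPM of the 13 messenger RNAs. The sources used here do not say whether ribosomal RNA was depleted, so these levels describe the libraries and not the tissue's ribosome content.

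Among messenger RNAs, the deposited levels were led by the subunits of ATP synthase, complex V. mt-Atp6 (chrM:7927-8607), which encodes subunit a of the proton channel, was at 5228 TPM in replicate 1 and 5205 in replicate 2, ranks 5 and 7 among 21474 protein-coding genes. mt-Atp8 (chrM:7766-7969), a small membrane subunit, was at 3984 TPM in replicate 1 and 4199 in replicate 2, rank 10 in both. mt-Cytb (chrM:14145-15288), cytochrome b of complex III, was at 2061 and 2026 TPM in replicates 1 and 2. In both libraries these 3 genes lay above every member of complex I except mt-Nd1, which overlapped mt-Cytb.

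The cytochrome oxidase genes of complex IV followed on deposited values. mt-Co1 (chrM:5328-6872), the catalytic subunit, was at 1714 TPM in replicate 1 and 1527 in replicate 2. mt-Co2 (chrM:7013-7696), which takes electrons from cytochrome c, was at 1594 TPM in replicate 1 and 1102 in replicate 2. mt-Co3 (chrM:8607-9390), a core subunit beside it, was at 1129 TPM in replicate 1 and 733 in replicate 2. The libraries lay nearer to each other for mt-Co1 than for mt-Co2 and mt-Co3.

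The 7 complex I genes, which encode the membrane arm of the NADH dehydrogenase, spread most widely. mt-Nd1 (chrM:2751-3707) was at 2069 TPM in replicate 1 and 2008 in replicate 2. mt-Nd4 (chrM:10167-11544) was at 840 and 765 TPM, and mt-Nd2 (chrM:3914-4951) at 608 and 562 TPM, in replicates 1 and 2. mt-Nd5 (chrM:11742-13565), the longest messenger RNA, was at 363 TPM in replicate 1 and 307 in replicate 2. Relative to level, the libraries lay furthest apart for mt-Nd5 among these 4 and nearest for mt-Nd1. mt-Nd3 (chrM:9459-9806) was at 316 TPM in replicate 1 and 341 in replicate 2, and mt-Nd4l (chrM:9877-10173) at 35.7 TPM in replicate 1 and 79.4 in replicate 2. mt-Nd6 (chrM:13552-14070), the only messenger RNA of the light-strand transcript, was at 492 TPM in replicate 1 and 378 in replicate 2. That is 0.383 ± 0.0308 of the median of the 12 others on deposited TPM, but 0.213 ± 0.0360 where the counts of nuclear copies described below are added to those others, and 0.260 on the deposited posterior mean TPM. The sources used here do not say whether reads were counted by strand, so reads from mt-Nd6 cannot be told apart from those of the heavy-strand transcript that passes through it.

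**Figure D1:**
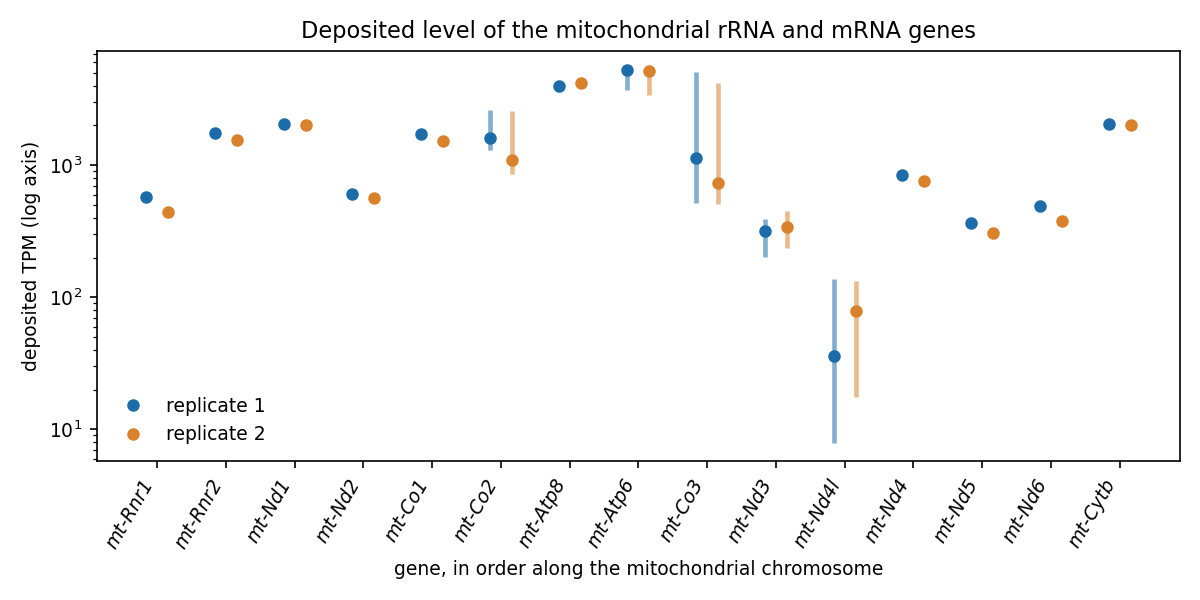
Deposited TPM on a log axis of the 2 ribosomal and 13 messenger RNA genes in order along the chromosome. Points are the libraries (replicate 1 left of replicate 2) and bars the deposited credibility intervals; the bars are wide for mt-Co2, mt-Atp6, mt-Co3, mt-Nd3 and mt-Nd4l and hardly visible for the other 10 genes.

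The deposited credibility intervals, whose level the file headers do not give, split the 15 genes into 2 kinds. For 10 genes the upper bound lay within 1.1 times the lower one in both libraries. For the other 5 it lay over 1.3 times above. The interval of mt-Co3 ran from 520 to 5070 TPM in replicate 1 and from 507 to 4180 in replicate 2. That of mt-Nd4l ran from 7.96 to 138 TPM in replicate 1 and from 17.6 to 133 in replicate 2. Those of mt-Co2 (1296 to 2602 TPM in replicate 1, 857 to 2560 TPM in replicate 2) and mt-Nd3 (202 to 391 TPM and 237 to 447 TPM) spanned about a doubling or more. That of mt-Atp6 ran from 3735 to 5175 TPM in replicate 1 and from 3388 to 5313 in replicate 2. Along the order of the 13 messenger RNAs by mean level, the TPM values of 5 of the 12 neighbouring pairs overlapped between libraries: mt-Cytb with mt-Nd1, mt-Co1 with mt-Co2, mt-Co2 with mt-Co3, mt-Co3 with mt-Nd4, and mt-Nd5 with mt-Nd3. The deposited intervals overlapped for 6 pairs, these 5 and mt-Atp6 with mt-Atp8. Pairs that are not neighbours were not counted. Among these, the interval of mt-Co3 overlapped those of mt-Atp6 and mt-Atp8 in both libraries. Which genes are highest, and in what order, is thus open on deposited intervals.

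The 5 genes with wide intervals were those that have near-identical annotated copies in the nuclear genome along nearly their whole length. Nuclear copies of mitochondrial DNA arise by insertion into chromosomes and are annotated as pseudogenes. A search of the GENCODE M21 transcripts found 11 genes of the tables with a stretch at least 95% identical to a mitochondrial gene over 100 or more bases. Of these, 7 lie in a row on the minus strand of chromosome 1, between 24611535 and 24616197 on GRCm38. They resemble mt-Co1, mt-Co2, mt-Atp6, mt-Co3, mt-Nd3, mt-Nd4l and mt-Nd4, a set of neighbours on the mitochondrial chromosome. Of all 100-base windows of mt-Co3, 99.9% occur unchanged in a nuclear gene of the tables. The share was 99.5% for mt-Co2 and mt-Atp6, 98.5% for mt-Nd4l, 97.6% for mt-Nd3, 60.8% for mt-Nd4, 30.8% for mt-Co1 and 3.19% for mt-Nd2. It was 0 for the other 7 genes, mt-Rnr1, mt-Rnr2, mt-Nd1, mt-Atp8, mt-Nd5, mt-Nd6 and mt-Cytb. Only annotated genes were searched, so copies without annotation would be missed. mt-Atp8 starts after mt-Co2 and runs into mt-Atp6. On chromosome 1 the copy of mt-Atp6 ends at 24614651 and that of mt-Co2 starts at 24614885, with no annotated copy between. Whether the bases between them resemble mt-Atp8 was not tested.

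The starts of 3 such pairs are shown, with bases that differ between gene and copy in capitals. Gm28437 has no difference from mt-Co3 in the 783 bases it covers. Gm28438 differs from mt-Nd3 by T3C alone, counted from base 1 of the mitochondrial gene with its base given before the position and that of the copy after it. Gm29216 covers the end of mt-Co1 from base 1054 on and differs by T1056A, C1057T, A1059G, A1060G, C1062A and A1066T.
mt-Co3 (chrM:8607-8666, plus strand): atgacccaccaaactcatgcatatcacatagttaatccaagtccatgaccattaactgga
Gm28437 (chr1:24613912-24613971, minus strand): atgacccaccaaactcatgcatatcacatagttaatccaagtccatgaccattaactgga
mt-Nd3 (chrM:9459-9518, plus strand): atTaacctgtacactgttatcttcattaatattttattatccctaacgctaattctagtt
Gm28438 (chr1:24613060-24613119, minus strand): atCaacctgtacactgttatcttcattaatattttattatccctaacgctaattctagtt
mt-Co1 (chrM:6381-6440, plus strand): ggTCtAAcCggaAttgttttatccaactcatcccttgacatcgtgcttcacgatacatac
Gm29216 (chr1:24616138-24616197, minus strand): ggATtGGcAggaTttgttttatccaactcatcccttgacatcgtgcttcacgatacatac
Of the 249 windows of mt-Nd3, 243 occur in its copy, and those that do not hold base 3 or reach past base 345, where the copy ends. The reference is that of the C57BL/6J strain and the embryos are labelled B6NCrl; which base these embryos carry there was not tested.

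The nuclear copies held 149614 counts in replicate 1 and 136796 in replicate 2, which is 25.2% and 28.0% of the counts on mitochondrial genes and copies together. All but 33.2 and 21.9 of these counts lay on the 7 copies of chromosome 1. Gm28437 was given 90941 counts in replicate 1 and 83771 in replicate 2, against 19974 and 11315 counts on mt-Co3 itself. Gm28661, identical to mt-Co2 over 681 bases, was given 22147 and 23583 counts, against 24072 and 14519 on mt-Co2. Gm28438 was given 5981 and 4843 counts, against 2033 and 1910 on mt-Nd3. The copy held 82.0% and 88.1% of the counts of its pair for mt-Co3, 47.9% and 61.9% for mt-Co2, and 74.6% and 71.7% for mt-Nd3.

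The other 4 pairs were split in other ways. Gm10222 was given 2171 and 1569 counts in replicates 1 and 2, against 182 and 354 on mt-Nd4l. Gm10925, identical to mt-Atp6 over 678 bases, was given 4443 and 5403 counts, against 78551 and 68245 on mt-Atp6. Gm29216 was given 23898 and 17601 counts, against 64000 and 49751 on mt-Co1. Gm28439, identical to mt-Nd4 over 876 bases, was given 0 and 3.97 counts, against 27746 and 22029 on mt-Nd4. The posterior SD, the spread that the authors' model gives an estimated count, was 28279 counts in replicate 1 for both mt-Co3 and Gm28437. Near-identical sequences share reads. The levels of mt-Co2, mt-Atp6, mt-Co3, mt-Nd3 and mt-Nd4l and of their copies are therefore uncertain, while the posterior SD was 130 and 107 counts for mt-Co1 and 3.07 and 4.48 counts for mt-Nd4 in replicates 1 and 2. Yet 30.8% of the windows of mt-Co1 and 60.8% of those of mt-Nd4 occur in a nuclear gene. These SDs come from the model, and whether its split of such reads is right was not tested.

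**Figure D2:**
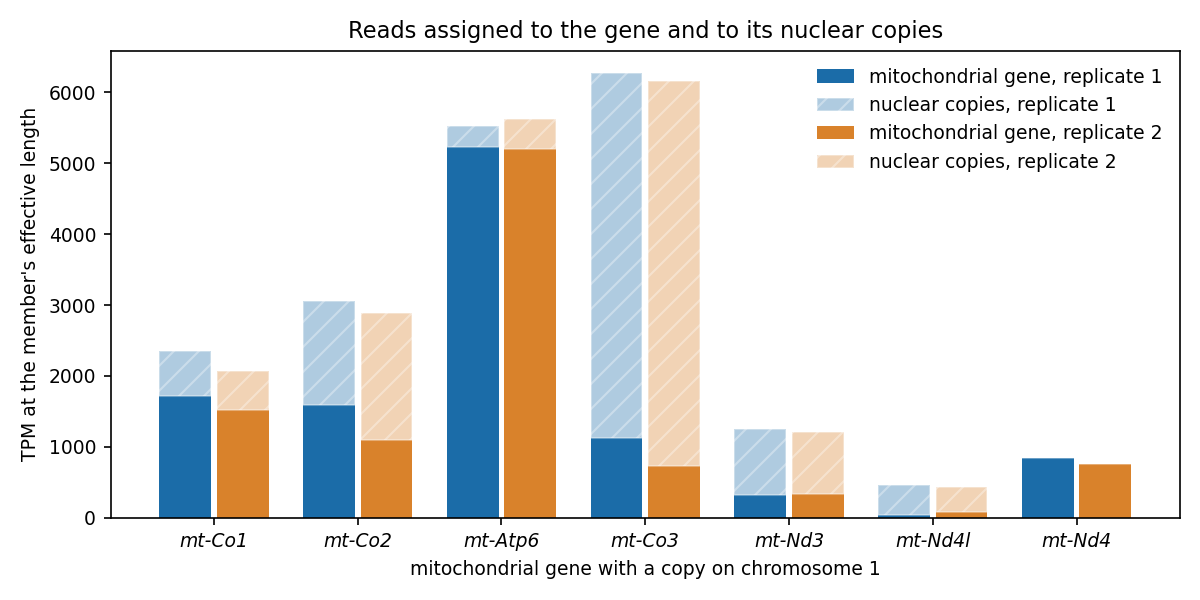
TPM at the effective length of the mitochondrial gene for the 7 genes with a copy on chromosome 1, replicate 1 left of replicate 2. Solid bars are the deposited TPM of the gene and hatched bars what the counts of its nuclear copies would add; mt-Co3 stands at 1129 and 733 TPM alone and at 6272 and 6162 TPM with its copy.

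Adding the counts of the copies to the gene they resemble changed which messenger RNA led. The sum is the level of gene and copy together and so an upper limit for the gene. mt-Co3 came to 6272 TPM in replicate 1 and 6162 in replicate 2 with its copy, above mt-Atp6 with its own (5523 and 5617 TPM). mt-Co2 came to 3061 TPM in replicate 1 and 2892 in replicate 2, and mt-Co1 to 2355 and 2068 TPM. mt-Nd3 came to 1247 TPM in replicate 1 and 1204 in replicate 2, and mt-Nd4l to 460 and 431 TPM. The fold between the highest and the lowest messenger RNA was 106 ± 57.3 on deposited TPM and 18.7 ± 1.99 on sums. On sums, 2 of the 12 neighbouring pairs overlapped between libraries, mt-Cytb with mt-Nd1 and mt-Nd4l with mt-Nd6.

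Both bicistronic messenger RNAs, those that carry a pair of overlapping reading frames, are part of this set. The last 43 bases of mt-Atp8 are the start of mt-Atp6, shown in capitals.
mt-Atp8 (chrM:7766-7969, plus strand): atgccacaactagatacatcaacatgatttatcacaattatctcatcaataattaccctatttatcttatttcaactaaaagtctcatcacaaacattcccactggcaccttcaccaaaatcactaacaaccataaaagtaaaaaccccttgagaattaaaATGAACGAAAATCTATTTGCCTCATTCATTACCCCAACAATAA
The end of mt-Nd4l runs 7 bases into mt-Nd4, again in capitals.
mt-Nd4l (chrM:10134-10173, plus strand): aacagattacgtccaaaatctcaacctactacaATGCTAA
Neither overlap holds a 100-base window, so no window was shared between mitochondrial genes, and the posterior SD of the mt-Atp8 count was 0 in both libraries. Copies without annotation were not searched, so this SD does not show that the reads of mt-Atp8 are unique to it. The 10800 and 9933 counts of mt-Atp8 come from only 105 start positions. mt-Atp8 was at 0.762 of mt-Atp6 in replicate 1 and 0.807 in replicate 2 on deposited TPM, and at 0.721 and 0.748 with the copy of mt-Atp6 added. mt-Nd4l was at 0.0424 of mt-Nd4 in replicate 1 and 0.104 in replicate 2, but at 0.548 and 0.564 with its copy added. Members of one transcript were thus nearer to each other on sums for mt-Nd4l and mt-Nd4, and slightly further apart for mt-Atp8 and mt-Atp6. For mt-Atp8 there was no annotated copy to add.

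Along the heavy-strand transcript the level did not fall steadily. Spearman's rho between TPM and the distance of a gene from the end of mt-Rnr2 was -0.33 ± 0.05 across 12 genes, which share library and transcript, and -0.33 with copies added. mt-Nd1, which begins 76 bases after mt-Rnr2, was at 2038 ± 43.1 TPM and mt-Cytb, which begins 11470 bases after it, at 2043 ± 24.6 TPM. On sums, level climbed through mt-Co1, mt-Co2, mt-Atp8 and mt-Atp6 to mt-Co3, and was lower at mt-Nd3 and the genes after it up to mt-Nd5. On deposited TPM the peak ended at mt-Atp6, since mt-Co3 stood at 931 ± 280 TPM. mt-Nd2, between mt-Nd1 and mt-Co1, was below both in both libraries.

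**Figure D3:**
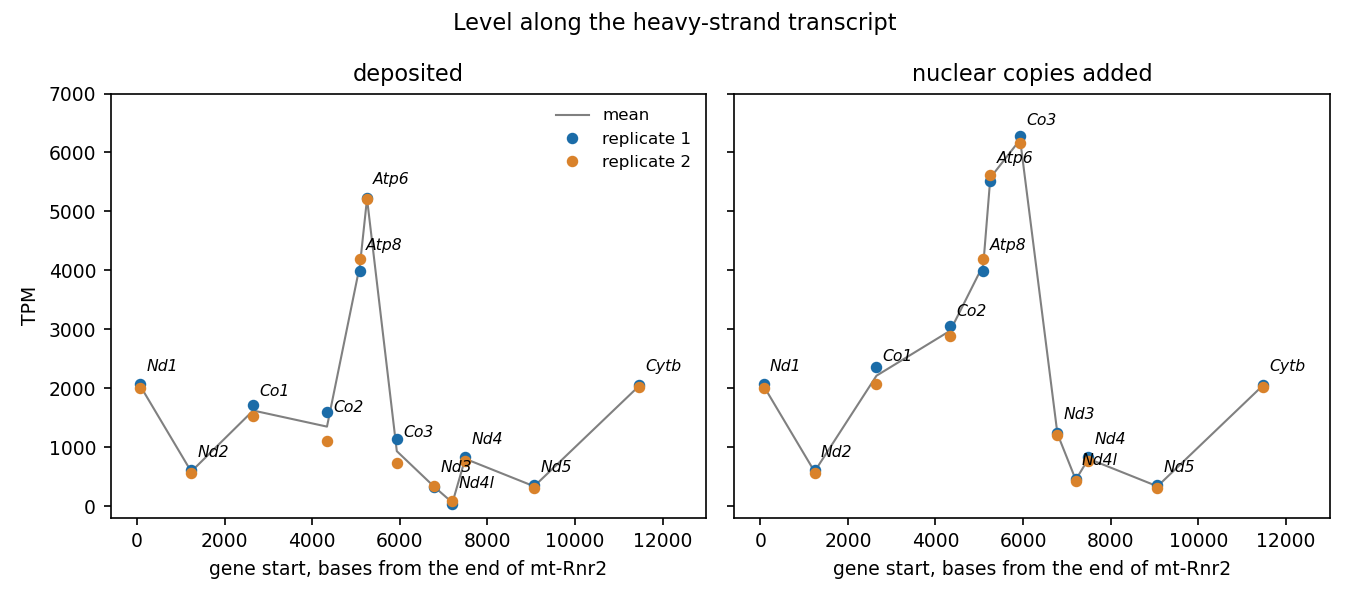
TPM of the 12 messenger RNA genes of the heavy-strand transcript against the distance of their start from the end of mt-Rnr2 in bases, as deposited (left) and with nuclear copies added (right). Points are the libraries and lines their mean; the highest gene is mt-Atp6 on the left and mt-Co3 on the right, and mt-Cytb at the far end stands near mt-Nd1 in both panels.

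The messenger RNAs also share features of sequence. GC content was between 31.9% and 41.1%. The 12 heavy-strand messenger RNAs held 5.88 to 16.1% G and 22.1 to 30.0% C, while mt-Nd6 held 28.1% G and 5.97% C. Its start, in which t is the most frequent base and c the rarest, is shown.
mt-Nd6 (chrM:14011-14070, minus strand): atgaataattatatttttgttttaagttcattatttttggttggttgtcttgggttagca
As annotated, 9 genes begin with ATG, and mt-Nd1 with GTG, mt-Nd2 with ATA, mt-Nd3 with ATT and mt-Nd5 with ATC. The genes mt-Co3, mt-Nd4 and mt-Cytb end in a single left-over T, which the poly(A) tail completes to a stop codon in mammalian mitochondria, and the 10 others end in TAA or TAG.

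By complex, the split of messenger RNA depended on the copies. Complex V genes held 47.0% ± 2.70 of the summed TPM of the 13 messenger RNAs on deposited values and 33.4% ± 1.34 on sums. Complex IV held 19.6% ± 2.99 on deposited values and 39.4% ± 0.692 on sums. Complex I held 23.1% ± 0.0269 and 20.2% ± 0.684, and complex III 10.3% ± 0.318 and 7.05% ± 0.0386. Complex V thus led on deposited values and complex IV on sums.

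By their median, the mitochondrial genes stood above the nuclear genes of the same complexes, though mt-Nd4l as deposited did not reach the nuclear median of complex I (250.24 ± 0.728 TPM). On deposited TPM the median of the mitochondrial genes was 9.53 ± 0.0216 times that of the nuclear genes for complex V, 4.65 ± 0.403 times for complex III, 2.18 ± 0.572 times for complex IV and 1.74 ± 0.327 times for complex I. On sums the factor for complex IV was 4.81 ± 0.216 and that for complex I 2.34 ± 0.138. Of the 13 mitochondrial messenger RNAs 6 averaged over 1000 TPM as deposited and 8 with copies added. Of 73 nuclear subunit genes 2 did, Atp5b, the catalytic beta subunit of ATP synthase (2113 ± 186 TPM), and Usmg5, one of its small membrane subunits (1006 ± 27.7 TPM). Within complex V these were followed by Atp5g3, which encodes ring subunit c (841 ± 48.1 TPM), and the alpha subunit Atp5a1 (818 ± 71.2 TPM). The highest genes of complex IV were Cox4i1 (852 ± 4.80 TPM), Cox8a (840 ± 20.1 TPM), Cox6b1 (830.0 ± 23.9 TPM) and Cox6a1 (649 ± 16.3 TPM), all subunits around the mitochondrially encoded core. Those of complex III were Uqcr10 (671 ± 12.5 TPM), Uqcr11 (666 ± 7.95 TPM), Uqcrq (622 ± 32.9 TPM) and Uqcrb (466 ± 2.64 TPM), and those of complex I the acyl carrier Ndufab1 (649 ± 10.8 TPM), Ndufc1 (547 ± 15.1 TPM), Ndufb9 (400.4 ± 6.73 TPM) and Ndufb8 (392 ± 6.65 TPM). Complex II, the only one with no mitochondrially encoded subunit, ran from 208 ± 24.1 TPM (Sdha) to 392 ± 30.4 TPM (Sdhd), with Sdhb at 272 ± 19.1 and Sdhc at 210.0 ± 19.4 TPM.

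**Figure D4:**
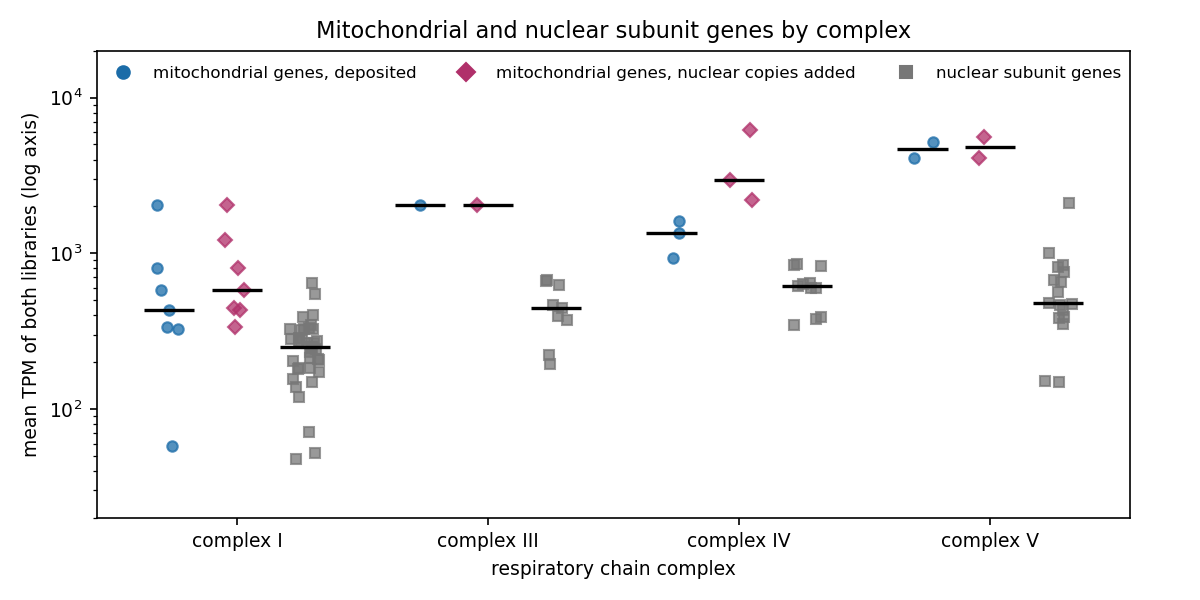
Mean TPM of both libraries on a log axis, by respiratory chain complex, for mitochondrial genes as deposited, the same with nuclear copies added, and nuclear subunit genes (left to right). Each point is a gene and black lines are medians; in complex IV the median of the mitochondrial genes is 1594 and 1102 TPM in replicates 1 and 2 as deposited and 3061 and 2892 TPM with copies, against 617 and 621 TPM for nuclear genes.

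Nuclear genes that copy, read and process the mitochondrial genome were present at far lower levels. All 62 genes of 5 lists reached 1 TPM in each library, with mean levels between 2.40 and 248 TPM. Of all protein-coding genes, 12165 of 21474 reached 1 TPM in each library. Among those for DNA copying and packaging, the single-strand binding protein Ssbp1 (130 ± 4.34 TPM) and the packaging factor Tfam (80.3 ± 3.80 TPM) were highest, followed by the polymerase Polg (27.7 ± 1.19 TPM) and the ligase Lig3 (24.0 ± 1.87 TPM). Among those for transcription and its end, Mrpl12, a ribosomal protein also found with the polymerase (202 ± 0.615 TPM), was followed by Mterf3 (43.0 ± 0.665 TPM), the RNA polymerase Polrmt (31.4 ± 3.85 TPM) and the elongation factor Tefm (26.4 ± 0.898 TPM). Of RNA processing and stability genes, Slirp, which with Lrpprc stabilises messenger RNAs, was at 248 ± 5.47 TPM, the exonuclease Rexo2 at 128 ± 4.84 TPM, Hsd17b10, a subunit of the enzyme that cuts at the front of transfer RNAs, at 118 ± 2.69 TPM, and Ptcd3 at 109 ± 17.9 TPM.

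Genes that modify ribosomal RNA and assemble the mitochondrial ribosome had a median of 24.6 ± 1.73 TPM. The highest were Ngrn (44.6 ± 3.47 TPM), the helicase Dhx30 (31.8 ± 2.31 TPM), Eral1, a chaperone of the small subunit RNA (31.2 ± 0.156 TPM), and Mettl17 (28.9 ± 6.58 TPM). Nuclear regulators had a median of 30.5 ± 3.07 TPM, led by Myc (184 ± 10.4 TPM), the coactivator Pprc1 (58.6 ± 4.56 TPM), Nrf1 (53.9 ± 6.11 TPM) and Gabpb1 (34.2 ± 4.29 TPM). The median over all protein-coding genes was 2.85 ± 0.0354 TPM.

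Between the libraries, mitochondrial RNA was higher in replicate 1. On counts scaled with TMM factors, which set the bulk of genes equal, the 15 genes had a median log2 ratio (replicate 1 over replicate 2) of 0.22, against -0.00229 over all 16607 genes that averaged at least 10 counts. It was above 0 for 13 of the 15, against 49.5% of all genes. With copies added it was above 0 for 15 of 15, with a median of 0.18 and an SD over the genes of 0.13, against an SD of 0.41 without them. Among the 6383 genes that averaged at least 1000 counts the median was -0.04, the SD was 0.13 and 38.9% were above 0. The mitochondrial genes share transcripts, so these counts are not of independent genes.

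The ratio differed from gene to gene beyond counting error. It was highest, on sums, for mt-Nd6 (0.47, 95% exact binomial interval 0.40 to 0.53) and mt-Rnr1 (0.45, 0.41 to 0.49), then mt-Nd5 (0.33, 0.29 to 0.36), mt-Co1 (0.27, 0.26 to 0.29) and mt-Rnr2 (0.27, 0.25 to 0.28). It was lowest for mt-Atp8 (0.01, -0.03 to 0.05) and mt-Atp6 (0.06, 0.05 to 0.07). mt-Nd1 (0.13, 0.11 to 0.15) and mt-Cytb (0.11, 0.09 to 0.13) lay near the lower end. Reads carry no molecular identifiers and are not independent molecules, so the intervals describe counting error alone and leave out doubt about the split with nuclear copies.

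On deposited counts, 1 of the 15 genes was at least 2-fold apart, mt-Nd4l, which was lower in replicate 1 (-1.07, interval -1.34 to -0.81). At least 2-fold lower values in replicate 1 were seen for 1.46% of all genes, and at least 2-fold higher ones for 2.94%. mt-Co3 (0.71) and mt-Co2 (0.62) were the highest on deposited counts. With mt-Nd4l they were the 3 genes at least 1.5-fold apart, a difference seen in 7.05% of all genes upward and 3.96% downward in replicate 1. Summed with its copy, the ratio was 0.18 for mt-Nd4l, 0.11 for mt-Co3 and 0.17 for mt-Co2, and none of the 15 was 1.5-fold apart. Of the 7 copies on chromosome 1, Gm28661, Gm10925 and Gm28439 had fewer counts in replicate 1, the deeper library, than in replicate 2, and the other 4 had more. The posterior SD in replicates 1 and 2 was 7049 and 8631 counts for Gm28661 and 8388 and 8704 for Gm10925. It was 3.07 and 4.48 for Gm28439, and 28279 and 20465 for Gm28437 among the other 4. The directions for these named copies are thus uncertain.

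**Figure D5:**
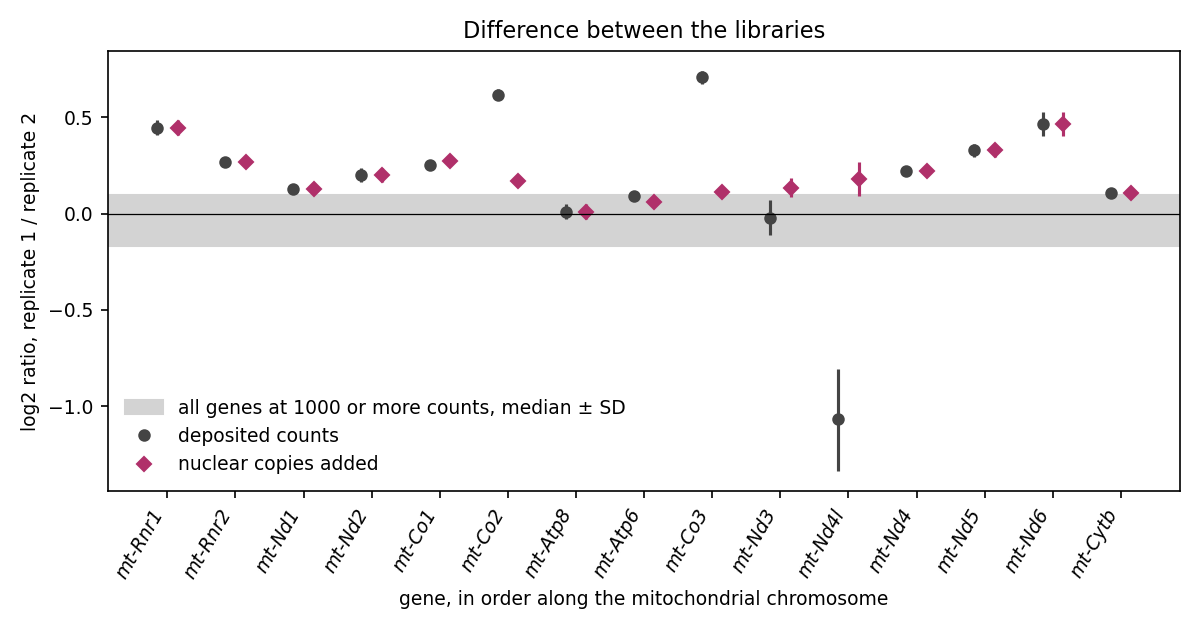
Log2 ratio of replicate 1 to replicate 2 on TMM-scaled counts for the 15 genes in order along the chromosome, as deposited (circles) and with nuclear copies added (diamonds). Bars are 95% exact binomial counting intervals and the grey band is the median ± SD of all genes that averaged at least 1000 counts; the circles of mt-Co2, mt-Co3 and mt-Nd4l stand far from their diamonds, which lie between 0.11 and 0.18.

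Nuclear genes of the same machinery lay nearer to equality. The median log2 ratio was 0.08 over the 73 nuclear subunit genes, of which 57 were above 0, and -0.06 over the 62 genes of copying, transcription, processing, assembly and regulation, of which 23 were above 0. Of all genes 49.5% were above 0, and of those that averaged at least 1000 counts 38.9% were. By this count the subunit genes leaned to replicate 1. None of the 139 list genes was 2-fold apart, against 4.40% of all 16607 genes tested, a set not matched to the lists on counts. The SD of the log2 ratio was 0.49 over all genes tested and 0.13 over those that averaged at least 1000 counts. The 2-fold share among genes with counts like those of the lists was not tested, so this contrast does not set the list genes apart. Heart muscle markers also differed between the pools: 6 of 6 were higher in replicate 1, by a median of 1.63 on the log2 scale, and had a summed level of 265 TPM in replicate 1 and 115 in replicate 2. They ranged from 2.84 to 119 TPM in replicate 1 and from 0.900 to 58.9 in replicate 2, and none was at 0. Of the other markers, 2 of 5 hepatoblast, 3 of 6 red cell, 1 of 3 macrophage and 1 of 3 neural genes had a log2 ratio above 0. Spike-ins held 14.6% of all TPM in replicate 1 and 11.1% in replicate 2, which lowers every TPM in replicate 1 but leaves TMM-scaled counts as they are. The part of heart muscle or of the handling of the pools in the mitochondrial difference was not tested.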

How the data were processed

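Total RNA of both libraries was deposited as 1 gene table each. Per the labels the assembly was mm10, and per the deposited notes the annotation was GENCODE M4; column names are those RSEM writes, but the sources used here name no aligner or quantifier. Estimated counts and TPM values were deposited by the authors; TPM values are relative to all features, spike-ins included. Posterior means and intervals accompany them. Replicate 1 totalled 34344230 estimated counts (31721267 on mouse genes), and replicate 2 totalled 31477397 (29750192 on mouse genes). Symbols, positions and sequences came from GENCODE M21 on GRCm38, the same assembly; 42462 of 43346 gene IDs matched.

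Nuclear copies were found with blastn 2.17.0 of M21 transcripts, so copies without annotation were not searched. Summed levels scale a gene's TPM by the counts of gene and copies over those of the gene. Counts, rounded, were scaled with TMM factors (edgeR 4.0.16, R 4.3.3) with a pseudocount of 0.5, and DESeq2 1.42.0 size factors were an alternative; this step was tested on simulated data. With 1 group no test between conditions exists. Members and lists were chosen with earlier results of these data known. All 13 messenger and 2 ribosomal RNA genes, the 4 highest genes of each list and the 4 copies with the most counts were named by rule; Gm10925, Gm10222 and Gm28439 were named after their values were seen. The gene Ndufb1 of the complex I list was not matched. Other values were computed with scipy 1.17.1 and pandas 2.3.3 under Python 3.11.15.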

Additional observations from a re-analysis of the deposited data

How the results depend on the processing

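Counting genes with their nuclear copies, an alternative chosen after seeing the data except for the share of counts, moved the most values. With copies added, mitochondrial genes held 1.76% of gene counts and messenger RNAs 3.33% of gene TPM, the fold between the highest and lowest messenger RNA was 18.7, and complexes I, III, IV and V held 20.2%, 7.05%, 39.4% and 33.4% of messenger RNA. The level of mt-Nd6 was then 0.213 of the median of the others, ribosomal over messenger RNA 0.0748, and mitochondrial over nuclear subunits 2.34 for complex I, 4.81 for complex IV and 9.89 for complex V. The median log2 ratio between libraries was 0.18, and 0 genes were 2-fold apart. With counts per annotated length, complexes I, III and V held 25.3%, 11.7% and 41.2%, ribosomal over messenger RNA was 0.126, and mitochondrial over nuclear subunits of complex V 8.01. With posterior mean TPM, complexes I, III, IV and V held 22.1%, 9.83%, 26.3% and 41.8%, mt-Nd6 was at 0.260, and the factor over nuclear subunits was 2.77 for complex IV and 8.88 for complex V; with posterior mean counts, also chosen after seeing the data, 0 genes were 2-fold apart. Without mt-Atp8, the split was 29.1%, 13.003%, 24.7% and 33.2%. With means in place of medians, the factor was 2.57 for complex I and 7.40 for complex V. The mitochondrial share was 2.53% on TPM in place of counts; the messenger RNA share was 1.98% of the TPM of all features and 1.07% of gene counts. Copies of 500 or more aligned bases held 22.6% of the joint counts. The library ratio was 0.24 on total counts and 0.19 on TPM, and 3 genes were 1.5-fold apart. The cause of these moves was not tested beyond the construction of each alternative. None of the summary values changed sign, but ratios of single genes did. With copies added, the log2 ratio between libraries went from -1.07 to 0.18 for mt-Nd4l and from -0.02 to 0.13 for mt-Nd3. Orders changed too: complex IV passed complex V with copies added and complex I with posterior mean TPM, and mt-Co3 passed mt-Atp6 with copies added. Leaving out a library leaves the value of the other; the messenger RNA fold then ran from 65.6 to 147. No paired analysis was possible because the labels give 1 group. Among the 15 genes mt-Nd4l had the fewest counts, 182 and 354 in replicates 1 and 2, with a posterior SD of 181 and 143; what depth limits was not tested.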

Other observations

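Of all 69691 features in the tables, 28403 are no longer than 99 bases and held 0 counts in both libraries together, so the 22 mitochondrial transfer RNA genes share this with every other feature of that size. The deposited TPM of 10 of the 15 mitochondrial genes with counts in replicate 1, and of 9 in replicate 2, lies above the upper bound of its own deposited interval, which brackets the posterior mean TPM. For mt-Nd1 in replicate 1 the TPM was 2069, against an interval of 2005 to 2042 and a posterior mean of 2024.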
